A study of Mus musculus with 15 samples.

Results

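The creatine kinase and purine nucleotide genes are 7 muscle transcripts of short-term energy supply: Ckm, Ckmt2, Slc6a8, Ampd1, Ampd3, Adssl1 and Ak1. They were chosen by name, as the probe sets whose single gene symbol in the platform annotation is one of these. Each of the 7 genes had 1 probe set, among 35556 on the array and 19938 genes with a single symbol, and all 7 passed the filter on low values that left 12056 genes for testing. The probe sets were 10550698 for Ckm, 10410984 for Ckmt2, 10600210 for Slc6a8, 10494873 for Ampd1, 10556302 for Ampd3, 10398859 for Adssl1 and 10471474 for Ak1. The rule names no contrast and no threshold, but the genes were proposed with earlier results of these arrays in view. Their values are therefore given as a description, and no p-value below is independent support for the choice.

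RNA came from the gastrocnemius, a calf muscle of mostly fast fibres, of male C57BL/6 mice aged 12 months, with 1 mouse per array. The 4 groups were wildtype mice on the control diet (3 arrays), wildtype mice on calorie restriction (CR, 4 arrays), Sirt3 knockout mice on the control diet (4 arrays) and Sirt3 knockout mice on CR (4 arrays). Sirt3 encodes a mitochondrial NAD-dependent deacetylase. The sources used here do not give the reach of the deletion or the composition and length of the diets. Values are deposited log2 RMA intensities, a log scale of probe brightness on which a difference of 1 is a doubling, and the number of arrays limits the precision of every comparison.

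Muscle keeps ATP steady during contraction with a phosphate buffer and a purine cycle. Creatine enters the fibre through a transporter, is phosphorylated by a mitochondrial creatine kinase, and hands its phosphate back to ADP through the cytosolic creatine kinase at the myofibrils. Adenylate kinase makes ATP and AMP from ADP. AMP deaminase turns that AMP into IMP, and adenylosuccinate synthase with adenylosuccinate lyase rebuilds AMP from IMP, which closes the purine nucleotide cycle.

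The sequences just upstream of the transcription start are shown for both creatine kinases, whose log2 differences under CR had opposite signs. Adssl1 is shown too, the 1 member among those with a window that matched a loose form of the MEF2 core. Windows come from RefSeq on GRCm38.p6 and run 250 bases up to the start, written 5′ to 3′ on the gene's strand. Of the 7 members 5 matched the promoter table, with 10 windows in all. Capitals mark matches on either strand to the E-box letters CANNTG, bound by the MyoD family, and to a loose form of the MEF2 core. That form is CTA, any 4 bases and TAG, while MEF2 sites hold A or T at those 4 bases. The Adssl1 match holds GTCC there, so by that rule it is not a MEF2 site. No E-box match overlapped a loose MEF2 match.
Ckm, chr7:19410844-19411093, plus strand: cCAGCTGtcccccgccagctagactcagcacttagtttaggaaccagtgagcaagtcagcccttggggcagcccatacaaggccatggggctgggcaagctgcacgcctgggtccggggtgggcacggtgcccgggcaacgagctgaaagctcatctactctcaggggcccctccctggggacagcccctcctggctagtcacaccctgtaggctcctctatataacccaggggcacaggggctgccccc
Ckmt2, chr13:91876886-91877135, minus strand: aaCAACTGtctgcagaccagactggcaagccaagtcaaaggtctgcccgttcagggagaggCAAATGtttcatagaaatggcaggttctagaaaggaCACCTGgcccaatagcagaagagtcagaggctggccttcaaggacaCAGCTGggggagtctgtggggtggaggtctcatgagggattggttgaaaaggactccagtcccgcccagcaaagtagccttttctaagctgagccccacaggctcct
Adssl1, chr12:112619797-112620046, plus strand: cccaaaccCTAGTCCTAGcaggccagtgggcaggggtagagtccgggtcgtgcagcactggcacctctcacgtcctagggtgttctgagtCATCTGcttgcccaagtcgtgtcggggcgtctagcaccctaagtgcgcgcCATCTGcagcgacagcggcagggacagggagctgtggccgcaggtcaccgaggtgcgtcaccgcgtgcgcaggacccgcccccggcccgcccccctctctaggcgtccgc

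The Ckm window held 1 E-box match, 249 bases before the start. The Ckmt2 window held 4, at 248, 189, 153 and 107 bases before the start, and 3.84% of all 32851 windows of this length held 4 or more. The Adssl1 window held 2 E-box matches, at 160 and 110 bases, and 1 match to the loose MEF2 form, at 242 bases. At least 1 E-box match was in 66.2% of all windows. A match to the loose MEF2 form was in 3.20%, which is not a rate of MEF2 sites. These matches describe letters in a window and were not tested as binding sites.

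The labels and the muscle identity were checked first. Sirt3 was lower on all 8 knockout arrays (4.94 to 6.19) than on all 7 wildtype arrays (6.38 to 6.68), with an exact permutation p of 0.000622 (two-sided). Array medians ran from 5.40 to 5.48. A list of 10 fast fibre genes had array means of 12.46 to 12.68, and 8 slow fibre genes had array means of 8.77 to 10.85. Transcripts of other tissues were highest on 4 arrays, and liver transcripts were also raised on 2 others. The male germ cell list (7 of 7 genes matched) averaged 10.57 on wildtype control replicate 3 and 10.01 on knockout control replicate 1, against 6.91 or less elsewhere. The pancreatic acinar list (6 of 7 matched) averaged 12.21 on wildtype control replicate 2, then 5.93 and 5.67 on wildtype control replicates 3 and 1, against 5.15 or less elsewhere. The liver list (8 of 8 matched) averaged 9.16 on wildtype CR replicate 4, then 8.23 on knockout control replicate 2 and 8.09 on wildtype control replicate 1, against 7.27 or less elsewhere. The fits without 4 arrays leave out both germ cell arrays, the acinar array and wildtype CR replicate 4, and keep the other 2 arrays with liver transcripts. Wildtype control replicate 1, among those kept, is the only wildtype control array in these fits. Of the arrays named here for the highest values of these lists, only wildtype CR replicate 4 was on CR. Other tissue and diet are thus partly confounded, and the part of other tissue in the diet differences of the 7 genes was not tested. In bulk muscle, fewer cells of a type and less RNA per cell cannot be told apart.

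**Figure D1:**
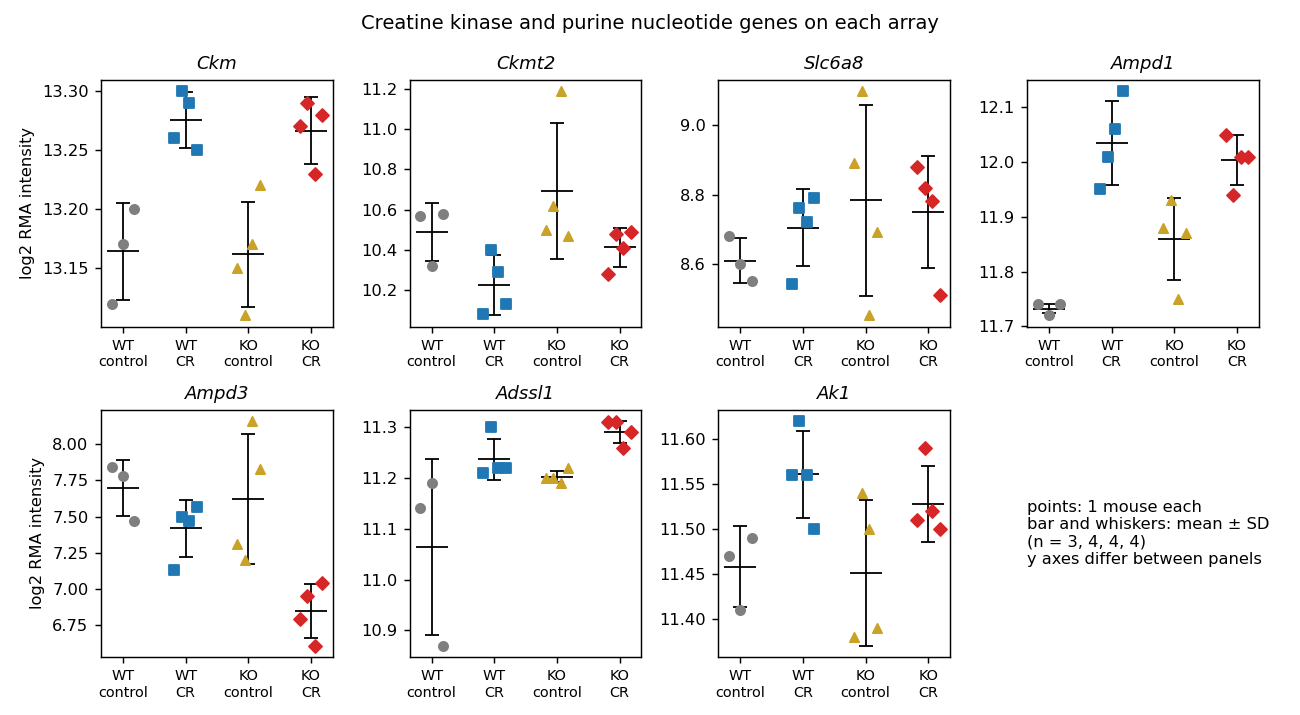
Log2 RMA intensity of the 7 genes (y axis, a separate scale in each panel) on every array in the 4 groups (x axis). Points are single mice, and the bar and whiskers are the mean ± SD (n = 3, 4, 4, 4). All 8 CR arrays of Ckm and Ampd1 lie above all 7 control arrays, and the 4 knockout CR arrays of Ampd3 lie below every other array.

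Across the diets, the 7 genes fell into those with a higher mean on CR in both genotypes (Ckm, Ampd1, Adssl1 and Ak1), those with a lower mean in both (Ckmt2 and Ampd3), and Slc6a8, whose differences had opposite signs. Averaged over genotypes, Ampd1 passed the threshold (limma, adjusted p under 0.05 over all genes) and the other 6 did not, where 1.07% of all genes passed (0.647% higher and 0.423% lower). An unadjusted limma p under 0.05 was reached by 6 of the 7, against 20.1% of all genes. In wildtype mice 0 of the 7 passed, where 0.124% of all genes did, and 3 had an unadjusted limma p under 0.05, against 13.1% of all genes. In knockout mice 0 passed, where 0.0664% of all genes did, and 3 had an unadjusted limma p under 0.05, against 12% of all genes. The median log2 difference of the 7 was 0.10 in wildtype and 0.077 in knockout mice, beside 0.044 and 0.0096 over all genes. CR arrays lay wholly above control arrays for 4 of the 7 in wildtype mice (9.55% of all tested genes) and for 3 in knockout mice (3.91%), and wholly below for 0 in wildtype mice (2.95%) and for 1 in knockout mice (3.08%).

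Ckm encodes the cytosolic muscle creatine kinase. It read 13.12, 13.17 and 13.20 in wildtype control muscle and 13.26, 13.30, 13.29 and 13.25 in wildtype CR muscle. It read 13.15, 13.11, 13.17 and 13.22 in knockout control muscle and 13.27, 13.29, 13.23 and 13.28 in knockout CR muscle. Every CR array lay above every control array, by at least 0.0084 between the nearest values, and the genotypes overlapped on each diet.

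The log2 difference of Ckm between the diets was 0.11 in wildtype mice (SE 0.050, adjusted p = 0.364 by limma) and 0.10 in knockout mice (SE 0.047, adjusted p = 0.396 by limma). Averaged over genotypes it was 0.11 (SE 0.034, limma adjusted p = 0.122), or 7.77% brighter. The differences in the 2 genotypes differed by -0.0062 (95% interval -0.15 to 0.14). An order in which all CR arrays exceed all control arrays occurred in 0.39% of all tested genes. The Ckm signal lay close to the top of the scale, since the brightest probe set of each array read 13.77 to 14.01. Whether that compresses its differences was not tested.

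Ckmt2 encodes the sarcomeric mitochondrial creatine kinase, which makes phosphocreatine from ATP leaving the mitochondrion. It read 10.57, 10.32 and 10.58 in wildtype control muscle and 10.08, 10.40, 10.29 and 10.13 in wildtype CR muscle. It read 10.50, 10.62, 11.19 and 10.47 in knockout control muscle and 10.28, 10.48, 10.41 and 10.49 in knockout CR muscle. The diets overlapped in both genotypes, although 4 of the 8 CR arrays lay below all 7 control arrays. Knockout control replicate 3 stood highest of the 15.

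The log2 difference of Ckmt2 between the diets was -0.27 in wildtype mice (SE 0.15, adjusted p = 0.446 by limma) and -0.28 in knockout mice (SE 0.14, adjusted p = 0.437 by limma), and -0.27 (SE 0.10, limma adjusted p = 0.163) averaged over them. Without knockout control replicate 3 the knockout value was -0.11 and the average -0.19. Ckmt2 means were higher in knockout than in wildtype muscle by 0.20 on the control diet (limma adjusted p = 0.817) and by 0.19 on CR (limma adjusted p = 0.911), with overlap on both diets. The control diet value was 0.039 without knockout control replicate 3 and 0.31 without the 2 germ cell arrays. So the cytosolic and the mitochondrial kinase had differences of opposite sign in each genotype, and only the arrays of the cytosolic one separated by diet.

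**Figure D2:**
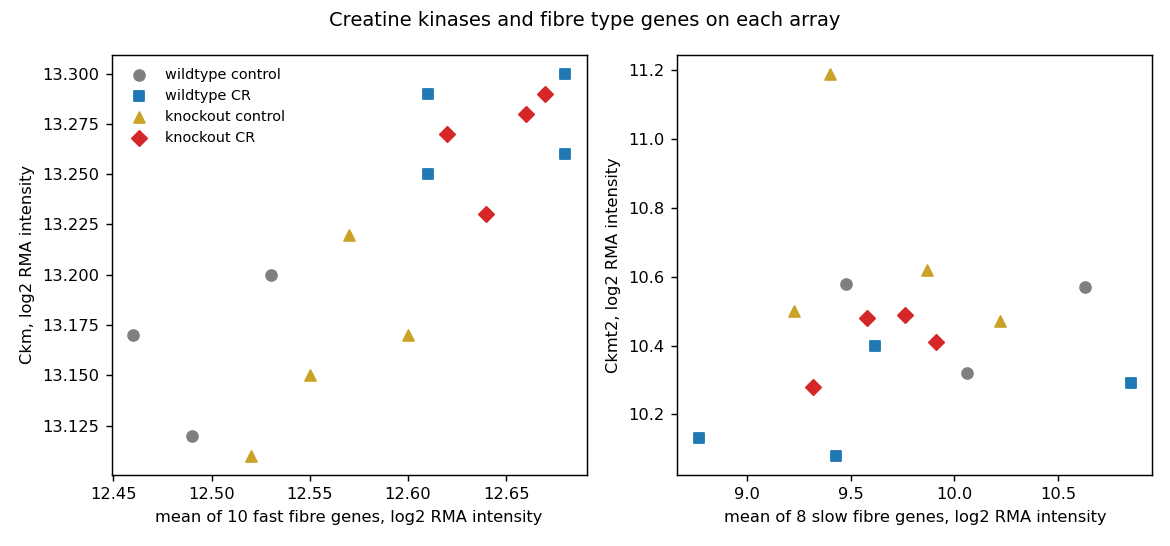
Left, Ckm against the mean of 10 fast fibre genes, and right, Ckmt2 against the mean of 8 slow fibre genes, all in log2 RMA intensity, with 1 point per array coloured by group. CR arrays lie at the upper right for Ckm, and knockout control replicate 3 has the highest Ckmt2 value (11.19) at a slow fibre mean of 9.40.

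Fibre type genes were read beside the kinases. The fast fibre list had array means of 12.46 to 12.53 in wildtype control, 12.61 to 12.68 in wildtype CR, 12.52 to 12.60 in knockout control and 12.62 to 12.67 in knockout CR muscle. Of its 10 genes 4 rose and 0 fell with CR averaged over genotypes (limma, adjusted p under 0.05), where 0.647% of all genes rose and 0.423% fell. The median of the list was 0.12. Myh1 ran the other way in knockout mice, at 11.77 to 11.98 on the control diet and 11.38 to 11.67 on CR, and its diets overlapped in wildtype mice. Of the 8 slow fibre genes 0 passed in limma, and the list overlapped between the diets, at 9.48 to 10.63 against 8.77 to 10.85 in wildtype and 9.23 to 10.22 against 9.32 to 9.91 in knockout mice. Wildtype CR replicate 3 had the highest slow fibre mean, 10.85, with Ckmt2 at 10.29, below 11 of the other arrays. The part of fibre type in the kinase differences was not tested.

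Slc6a8 encodes the sodium-dependent creatine transporter of the cell membrane. It read 8.55 to 8.68 in wildtype control, 8.54 to 8.79 in wildtype CR, 8.45 to 9.10 in knockout control and 8.51 to 8.88 in knockout CR muscle, so all 4 groups overlapped. The log2 difference between the diets was 0.096 in wildtype mice (SE 0.13, adjusted p = 0.753 by limma) and -0.034 in knockout mice (SE 0.12, adjusted p = 0.931 by limma). The lowest and the highest of the 15 values, 8.45 and 9.10, were both knockout control arrays (replicates 3 and 2). Without replicate 2 the knockout difference was 0.072, and without replicate 3 it was -0.14.

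Ak1, the cytosolic adenylate kinase of muscle, read 11.41 to 11.49 in wildtype control and 11.50 to 11.62 in wildtype CR muscle, without overlap. It read 11.38 to 11.54 in knockout control and 11.50 to 11.59 in knockout CR muscle, with overlap. The log2 difference was 0.10 in wildtype mice (SE 0.059, adjusted p = 0.457 by limma) and 0.077 in knockout mice (SE 0.055, adjusted p = 0.592 by limma). After a further quantile normalization both were 0.034.

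**Figure D3:**
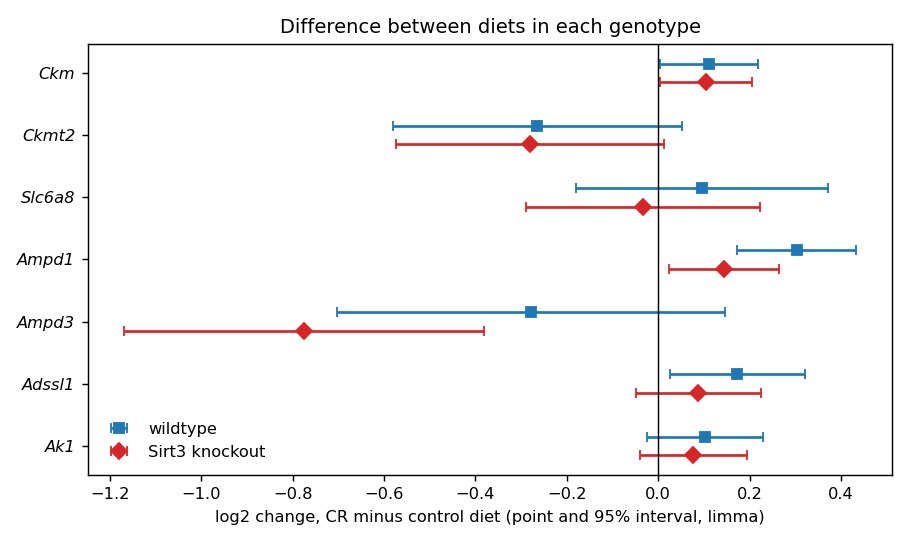
Log2 difference between CR and control diet (x axis) for each of the 7 genes (y axis) in wildtype (squares) and Sirt3 knockout mice (diamonds), with 95% intervals from the limma fit. Ampd1 and Ampd3, the AMP deaminases, lie on opposite sides of 0, and the widest separation between genotypes is that of Ampd3 (-0.28 and -0.78).

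The purine nucleotide cycle held the largest differences of the 7 in each direction. Ampd1 encodes the AMP deaminase of skeletal muscle. It read 11.74, 11.72 and 11.74 in wildtype control muscle and 11.95, 12.01, 12.06 and 12.13 in wildtype CR muscle. It read 11.88, 11.93, 11.75 and 11.87 in knockout control muscle and 12.05, 11.94, 12.01 and 12.01 in knockout CR muscle. The order of the groups was wildtype control, knockout control, then both CR groups. All 8 CR arrays lay above all 7 control arrays, with a gap of 0.21 in wildtype and 0.0060 in knockout mice, and the CR groups overlapped each other.

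Ampd1 rose with CR averaged over genotypes, by 0.22 (SE 0.041, limma adjusted p = 0.0313), or 16.8%. The log2 difference was 0.30 in wildtype mice (SE 0.061, adjusted p = 0.0801 by limma) and 0.14 in knockout mice (SE 0.056, adjusted p = 0.330 by limma). The difference between these, -0.16 (95% interval -0.34 to 0.019, limma adjusted p = 0.863), did not pass the threshold. The averaged value stayed between 0.21 and 0.24 without any 1 array, but the adjusted p then ran from 0.0309 to 0.0661. It passed the threshold in 7 of these 15 fits. In limma it was 0.0517 and 0.0607 when wildtype control replicates 2 and 3 were left out in turn, and 0.0605, 0.0573 and 0.0518 for wildtype CR replicates 2, 3 and 4. In limma it was 0.0516 for knockout control replicate 3, and 0.0535 and 0.0661 for knockout CR replicates 3 and 4. Without the 2 germ cell arrays the change was 0.23 (limma adjusted p = 0.0708), and without the germ cell, acinar and highest liver arrays, 4 in all, it was 0.21 (limma adjusted p = 0.237), with 1 wildtype control array left.

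Ampd3 encodes the AMP deaminase first known from red cells, which muscle also makes and which is known to rise in denervated muscle. It read 7.84, 7.78 and 7.47 in wildtype control muscle and 7.13, 7.50, 7.47 and 7.57 in wildtype CR muscle. It read 7.31, 7.20, 8.16 and 7.83 in knockout control muscle and 6.79, 6.95, 6.61 and 7.04 in knockout CR muscle. The 4 knockout CR arrays lay below every other array, while the other 3 groups overlapped one another. Knockout control muscle spread widest, at 7.62 ± 0.45 (SD, n = 4), against 6.85 ± 0.19 (SD, n = 4) in knockout CR muscle.

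The log2 difference of Ampd3 between the diets was -0.28 in wildtype mice (SE 0.20, adjusted p = 0.536 by limma) and -0.78 in knockout mice (SE 0.18, adjusted p = 0.169 by limma). Averaged over genotypes it was -0.53 (SE 0.13, limma adjusted p = 0.0723). Arrays of the diets did not overlap in knockout mice, downwards, for 3.08% of all tested genes. The difference between genotypes in the diet response was -0.50 (95% interval -1.08 to 0.082, limma adjusted p = 0.863). On CR the knockout mean lay -0.57 from the wildtype mean (limma adjusted p = 0.698), without overlap, as for 2.76% of all tested genes in that direction. On the control diet it lay at -0.074 (limma adjusted p = 0.947), and at -0.25 and 0.067 without knockout control replicates 3 and 2. In wildtype mice the diet difference was -0.18 without wildtype CR replicate 1 and -0.47 without the 4 arrays with transcripts of other tissues. The difference between genotypes in the diet response was -0.32 without knockout control replicate 3 and also with array weights. In knockout mice the diet difference was -0.60 without knockout control replicate 3 and -0.88 without the 2 germ cell arrays.

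Markers of blood cells were read beside Ampd3. Of 10 erythroid genes 2 matched a probe set (Alas2 and Slc4a1), and their array means were 5.39 to 5.83 in wildtype control, 5.82 to 6.22 in wildtype CR, 5.70 to 5.99 in knockout control and 6.16 to 6.24 in knockout CR muscle. These means overlapped between the diets in wildtype mice. In knockout mice they did not overlap and were higher on CR, although the values of each gene alone overlapped. In limma 0 of these 2 genes passed for any of the diet contrasts. The leukocyte and macrophage list (6 of 6 matched, 3 past the filter) had array means of 5.84 to 6.27 in knockout control and 5.60 to 5.87 in knockout CR muscle. In wildtype muscle the means were 5.83 to 6.05 and 5.77 to 5.91. The value of 6.27 was on knockout control replicate 1, a germ cell array, where Cd68 read 8.37, against 6.15 to 6.30 on the other knockout control arrays. The part of either list in the Ampd3 difference was not tested.

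Other cell types of the muscle were read beside all 7 genes, with 0 genes of these lists past the threshold in limma. With CR averaged over genotypes the median difference was -0.45 for 6 tendon genes, 0.51 for 6 adipocyte genes and 0.39 for 4 smooth muscle genes. The tendon list had array means of 7.27 to 7.60 in wildtype control and 6.71 to 7.26 in wildtype CR muscle, without overlap, and of 7.04 to 7.23 and 6.55 to 7.18 in knockout muscle, with overlap. The adipocyte means were 6.88 to 7.37 and 6.74 to 8.31 in wildtype, and 7.12 to 7.72 and 7.24 to 8.50 in knockout muscle. The smooth muscle means were 7.06 to 7.72 and 7.43 to 8.12 in wildtype, and 7.35 to 7.85 and 7.63 to 8.26 in knockout muscle. Endothelial genes (4) had a median of 0.016 and Schwann cell genes (2 of 4 matched) a median of -0.019. The part of these cell types in the differences of the 7 genes was not tested.

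**Figure D4:**
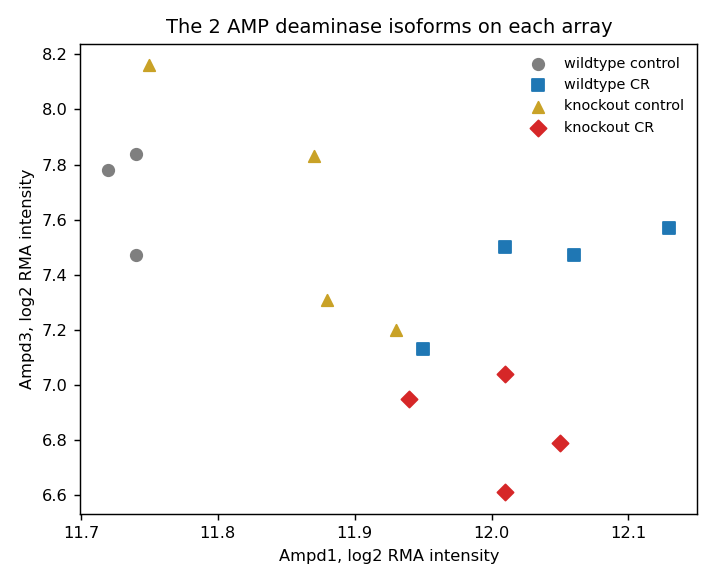
Ampd1 (x axis) against Ampd3 (y axis), both in log2 RMA intensity, with 1 point per array and the 4 groups by colour and shape. Wildtype control arrays lie at the left (Ampd1 at or below 11.74, Ampd3 7.47 to 7.84), and knockout CR arrays at the lower right (Ampd3 at or below 7.04). Knockout control replicate 3 lies at the upper left (Ampd1 11.75, Ampd3 8.16).

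The balance of the AMP deaminase probe sets was expressed as Ampd1 minus Ampd3, each centred on its mean over the 15 arrays. It was -0.51 ± 0.20 (SD, n = 3) in wildtype control, 0.074 ± 0.14 (SD, n = 4) in wildtype CR, -0.31 ± 0.52 (SD, n = 4) in knockout control and 0.61 ± 0.21 (SD, n = 4) in knockout CR muscle. The pair was chosen after its members' opposite signs were seen, so nothing is read from the order of the groups. This measure shows unequal differences of the isoforms, not their relative abundance.

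Adssl1 encodes the muscle adenylosuccinate synthase, which takes IMP back towards AMP. It read 11.14, 11.19 and 10.87 in wildtype control muscle and 11.21, 11.30, 11.22 and 11.22 in wildtype CR muscle. It read 11.20, 11.20, 11.19 and 11.22 in knockout control muscle and 11.31, 11.31, 11.26 and 11.29 in knockout CR muscle. The diets did not overlap in either genotype, with gaps of 0.021 and 0.044. Wildtype control replicate 3, an array with germ cell transcripts, was the lowest of the 15.

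The log2 difference of Adssl1 was 0.17 in wildtype mice (SE 0.069, adjusted p = 0.304 by limma) and 0.087 in knockout mice (SE 0.064, adjusted p = 0.602 by limma). Without wildtype control replicate 3 the wildtype value was 0.074. Ckm, Ampd1 and Adssl1 were the 3 members with higher CR arrays and no overlap in each genotype, which held for 0.871% of all tested genes. Because the genes were chosen with results in view, nothing is read from that share.

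Between the genotypes, 0 of the 7 genes passed in limma on the control diet, on CR or averaged over the diets, where 0%, 0.0166% and 0% of all genes did. Sirt3, the deleted gene, did not pass in any of these contrasts either, so a count of 0 does not show that the genotypes are alike. An unadjusted limma p under 0.05 was reached by 0, 1 and 1 of the 7, against 7.03%, 5.92% and 7.18% of all genes, and the gene was Ampd3 both times. On the control diet Ampd1 and Adssl1 were higher in knockout arrays without overlap, by 0.13 (limma adjusted p = 0.719) and 0.14 (limma adjusted p = 0.728), as 3.71% of all tested genes were. The Adssl1 value was 0.039 without wildtype control replicate 3, a germ cell array, and 0.20 without wildtype control replicate 2. For the difference in diet response between genotypes 0 of the 7 passed in limma, where 0% of all genes did, and 0 had an unadjusted p under 0.05, against 5.71% of all genes. All 7 of these differences were negative, from -0.0062 for Ckm to -0.50 for Ampd3, with a median of -0.086 beside -0.025 over all genes. Without 1 array or under another setting the sign turned at least once for 5 of the 7, and for Ampd1 and Ampd3 it did not.

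**Figure D5:**
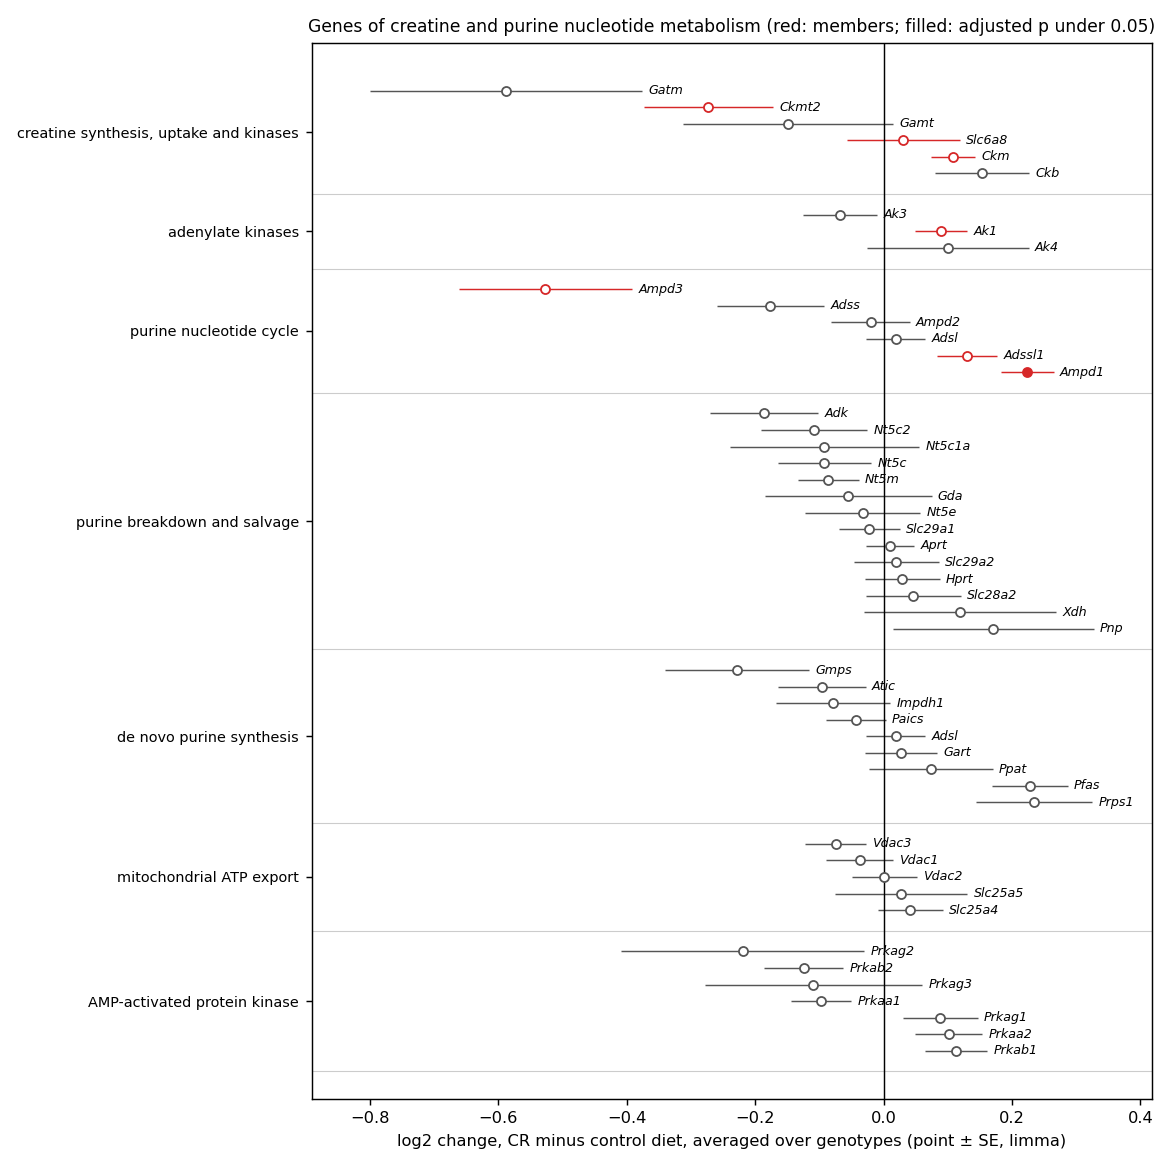
Log2 difference between CR and control diet averaged over genotypes (x axis, point ± SE from the limma fit) for the tested genes of 7 lists (y axis, Adsl in 2 of them). The 7 genes described here are red and the others grey, and the 1 filled point is Ampd1, the only gene of these lists past the threshold (adjusted p = 0.0313).

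The rest of creatine and purine nucleotide metabolism was read from 7 lists with 55 further genes, of which 50 matched a probe set and 42 passed the filter. With CR averaged over genotypes 0 of the 42 passed in limma, 19 had a positive difference and 23 a negative one, and their median was -0.027 beside 0.029 over all genes. In wildtype mice 0 of 42 passed and the median was -0.010, and in knockout mice 0 of 42 passed and the median was -0.034. The 5 genes of mitochondrial ATP export, which include the muscle ADP/ATP carrier Slc25a4 (0.042, SE 0.050), had a median of 0.0012. The 7 subunit genes of AMP-activated protein kinase, the sensor of AMP, had a median of -0.097, with 3 positive and 4 negative differences, from Prkag2 at -0.22 (SE 0.19, limma adjusted p = 0.511) to Prkab1 at 0.11 (SE 0.048, limma adjusted p = 0.218). Prkag2 read 7.46 and 7.02 on the germ cell arrays, wildtype control replicate 3 and knockout control replicate 1, against 6.00 to 6.51 elsewhere.

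The close relatives of the 7 genes did not pass either. Ckb, the brain-type creatine kinase, stood at 0.15 (SE 0.074, limma adjusted p = 0.261), and Ckmt1, the ubiquitous mitochondrial kinase, did not pass the filter, at 4.46 to 5.17. Ampd2, the third AMP deaminase, stood at -0.020 (SE 0.061, limma adjusted p = 0.871). Adss, the other adenylosuccinate synthase, stood at -0.18 (SE 0.083, limma adjusted p = 0.252), the opposite sign from Adssl1. Adsl, the lyase that completes the cycle, stood at 0.019 (SE 0.046, limma adjusted p = 0.839).

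The creatine synthesis genes were Gatm at -0.59 (SE 0.21, limma adjusted p = 0.157) and Gamt at -0.15 (SE 0.16, limma adjusted p = 0.615). Gatm read highest, 8.93, on wildtype control replicate 2, the array with pancreatic acinar transcripts, and next, 8.17, on wildtype control replicate 3. It read 6.62 to 7.93 on the other 13 arrays. Ak8 and Ak7, adenylate kinases that did not pass the filter, were highest on the germ cell arrays. Ak8 read 8.84 on wildtype control replicate 3 and 7.76 on knockout control replicate 1, against 4.13 to 4.77 elsewhere. Ak7 read 5.63 and 4.94 on these arrays, against 3.76 to 4.23 elsewhere. The part of other tissues in the Gatm difference was not tested.

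For each of the 7 genes the tested genes most alike over the 15 arrays were listed by Pearson's r, as a description in which arrays of one group share diet and genotype. Ckm was most like Pvalb (0.92), the calcium buffer of fast fibres, Ttn (0.90), which encodes titin, and Pygm (0.90), muscle glycogen phosphorylase. Within groups, after removal of the group means, these were 0.64, 0.67 and 0.57. Ckmt2 was most like Phyh (0.89), a peroxisomal hydroxylase, Sdhb (0.88), a subunit of respiratory complex II, and Vegfb (0.87), and within groups these were 0.78, 0.87 and 0.80. By ranks over the 15 arrays (Spearman's rho) they were lower, at 0.74, 0.61 and 0.53. Knockout control replicate 3 had the highest Ckmt2 value, 11.19, and removal of group means does not remove its part in r.

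Ampd1 was most like Misp3 (0.91), Hsd17b14 (0.91) and Gstm2 (0.90), and Ampd3 was most like Osbpl8 (0.89), Ehd4 (0.87) and Spag9 (0.85). Within groups these were 0.52, 0.78 and 0.44 for Ampd1, and 0.69, 0.60 and 0.85 for Ampd3. Adssl1 was most like Psmb8 (0.95), Rpl26 (0.94) and Tubgcp6 (0.93), with within-group r of 0.95, 0.87 and 0.86. By ranks (Spearman's rho) these were 0.73, 0.76 and 0.88, and Adssl1 read lowest, 10.87, on wildtype control replicate 3, a germ cell array. Ak1 was most like Hjv (0.85), Sgta (0.84) and Pgm1 (0.84), and within groups these were 0.73, 0.74 and 0.70. Slc6a8 was most like Gm10825 (0.85), Efl1 (0.82) and Abtb2 (0.82), and within groups these were 0.93, 0.83 and 0.84. None of the 7 was among the 3 genes most like another. Among the 21 pairs of the 7 genes, the within-group r ran from -0.59 for Slc6a8 with Ampd3 to 0.67 for Slc6a8 with Ampd1.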

How the data were processed

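Biotin-labelled gastrocnemius RNA was hybridised to Affymetrix mouse arrays, per the labels' protocols. The deposited log2 values were made with RMA (version and scan batches not given in the sources used here), per the submitters' processing notes, so no batch could be tested. No further normalization was applied. Of 35556 probe sets, 21789 had 1 gene symbol in the platform annotation, 1621 had several and were left out, and 12146 were unnamed here. A gene was represented by its probe set with the highest mean, and genes below the 40th percentile of listed probe sets (5.32) were removed.

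The test was limma 3.58.1 under R 4.3.3 (lmFit, eBayes), given a mean for each of the 4 groups over the 15 arrays. The 7 contrasts were two-sided, with Benjamini-Hochberg adjustment over 12056 genes and a threshold of 0.05. The fit was also run on simulated data with independent normal errors and no arrays with transcripts of other tissues. That run does not bear on such arrays. The members and lists were chosen with earlier results of these data known. Named genes were the members, their paralogs, any list gene past the threshold, the creatine synthesis genes and the 3 nearest genes by Pearson's r; other genes named (Sirt3 apart) were chosen after their values were seen. The labels call the replicates biological, and alternatives are in the closing section. Figures were drawn with matplotlib 3.10.9.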

Additional observations from a re-analysis of the deposited data

Results flagged for a closer look

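In 24 groups of 4 arrays (7 genes and Sirt3) 1 array stood far from its group: Adssl1 on wildtype CR replicate 2 read 11.30, against 11.22 for the nearest and 11.21 for the lowest of the group. Its gap made up 0.832 of the range, above Dixon's 95% critical value for 4 arrays, and chance flags about 1 in 20 groups.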

How the results depend on the processing

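The 26 alternatives were 9 changes of processing or fit, 15 fits without 1 array, and fits without the 2 germ cell arrays or the 4 arrays with transcripts of other tissues. For CR averaged over genotypes, the count of the 7 genes past the threshold, 1 in the report, was 0 without a filter, with quantile normalization, with the replicate block, without the 2 and without the 4 arrays, and 2 (Ckm and Ampd1) with a trended robust prior. Without 1 array it ran from 0 to 1. For CR in wildtype mice the count, 0 in the report, was 1 (Ampd1) with the trended prior. The counts of the other 5 contrasts were 0 throughout. Ampd1 stood at 0.22 with the replicate block (limma adjusted p = 0.0803). The labels give the same replicate numbers in each group without saying what they share. Deviations of same-numbered arrays from their group means correlated at -0.017 on average over 21 pairs, from -0.64 to 0.50, against 0.0095 for other pairs. The highest of the other pairs, 0.76, joined the 2 germ cell arrays. With such arrays among the pairs, these averages cannot show whether a number marks a batch, which was not tested. Over all genes the counts past the threshold ran from 5 to 259 for averaged CR (129 in the report), from 1 to 33 in wildtype (15), from 0 to 33 in knockout (8), from 0 to 5 for the interaction (0), and from 0 to 8, 13 and 7 between genotypes on control diet, on CR and averaged (0, 2 and 0). Of 1274 recomputed differences of the 7 genes 51 changed sign, none of them past the threshold. The sign of the CR difference held throughout for 6 of 7 genes in each genotype, Slc6a8 being the exception. Causes were not tested.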

Other observations

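Among the other genes of purine metabolism, Hprt, the salvage enzyme for hypoxanthine and guanine, had the smallest unadjusted p for the difference in diet response between genotypes. Its log2 difference between the diets was 0.22 (SE 0.086) in wildtype and -0.16 (SE 0.079) in knockout mice, a difference of -0.39 (SE 0.12, limma adjusted p = 0.824) that did not pass the threshold. It read 6.86 to 7.13 in wildtype control, 7.09 to 7.33 in wildtype CR, 7.13 to 7.22 in knockout control and 6.84 to 7.13 in knockout CR muscle. The lowest wildtype control value was on replicate 3, a germ cell array.

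Pfas, an enzyme of de novo purine synthesis, read 6.39 to 6.69 in wildtype control and 6.84 to 6.95 in wildtype CR muscle, without overlap. The log2 difference was 0.34 (SE 0.087, limma adjusted p = 0.169). In knockout muscle the diets overlapped, at 6.60 to 6.93 on the control diet and 6.81 to 6.99 on CR, and the difference was 0.12 (SE 0.080, limma adjusted p = 0.576). The difference between the genotypes was -0.22 (limma adjusted p = 0.863). The lowest Pfas value of each control group was on its germ cell array, 6.39 on wildtype control replicate 3 and 6.60 on knockout control replicate 1, and the part of these arrays was not tested. Both genes were chosen after their values were seen.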
